A study of Mus musculus with 8 samples.

Results

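The 40 genes described here mark the endothelial cells that line the blood vessels of the liver, or encode factors that these cells send to hepatocytes. They were taken from a list of symbols: each is a row of the array whose annotation gives exactly 1 symbol, equal to a listed one. All 40 had such a row, each had 1 row only, and they were read among 22180 named genes. They were divided into 28 pan-endothelial genes, 8 sinusoidal genes and 4 angiocrine factors. The arrays held RNA of primary hepatocytes, the parenchymal cells of the liver, from p16-/- mice (4 knockout arrays) and p16+/+ littermates (4 wild type arrays). Cells were freed by collagenase perfusion in 2 steps and plated in Williams E medium that held 25 nM dexamethasone, 100 nM insulin and 10% fetal bovine serum. After 16 h both groups were moved to DMEM with 1 mM glucose, 0.1% bovine serum albumin and antibiotics for 8 h, which brought them to the RNA harvest at 24 h. p16 is a cell cycle inhibitor encoded by Cdkn2a that holds back CDK4 and CDK6. No age or sex is given, and although samples are labelled as biological replicates, separate animals are not stated. The p-values therefore reflect only the spread among these 8 samples, which may be partly technical.

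Liver sinusoidal endothelial cells form a fenestrated lining without a regular basement membrane, and they clear hyaluronan, modified proteins and immune complexes from blood through scavenger receptors. They also act on hepatocytes through secreted angiocrine signals: BMP2 and BMP6 drive hepcidin through SMAD proteins, while WNT2, WNT9B and R-spondin 3 set the pericentral zone through beta-catenin. A collagenase preparation of hepatocytes can carry over endothelial cells, macrophages and stellate cells. In such a bulk sample, fewer cells of a type and less RNA per cell cannot be told apart.

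All values are log2 levels on the scale of the deposited table, and changes are knockout minus wild type. The array medians ran from 3.76 to 3.88, and the precision is set by the 4 arrays of each group. Hepatocyte markers, which define the labelled cell type, were high: the albumin gene Alb stood at 13.54 ± 0.028 in wild type cells (SD, n = 4) and at 13.57 ± 0.013 in knockout cells, and the transthyretin gene Ttr at 12.78 ± 0.088 and 12.97 ± 0.012. These 2 genes do not stand for all hepatocyte genes. Of a list of 19 mature hepatocyte genes 13 rose in the knockout, 9 of them at least 2-fold, beside 7.02% and 1.07% of all genes tested. Cdkn2a was at 4.16, 4.79, 4.48 and 4.68 on the wild type arrays and 4.28, 4.66, 4.27 and 4.91 on the knockout arrays. The groups overlapped and its change was 0.004 (95% interval -0.37 to 0.38); which transcript or deleted part its row measures is not given in the sources used here, so it checks nothing about the genotype.

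Endothelial genes were lower in the knockout hepatocyte cultures. Of the 40 genes, 27 fell, 1 rose and 12 did not pass the test (limma, adjusted p under 0.05 over all 15380 genes tested), where 6.76% of all genes tested fell and 7.02% rose. All 40 genes lay above the filter on dim genes, a mean over the 8 arrays of 3.32. Sox18 and Clec4g had knockout means under 3.32 (3.05 and 3.28), so they passed the filter only through the wild type arrays. The fall reached 2-fold for 14 of the 40, Sox18 among them, against 0.709% of all genes tested, and no rise did, against 1.07%. The median change was -0.80, and that of all genes tested was -0.024. All 4 knockout arrays lay below all 4 wild type arrays for 28 of the 40 genes and above them for 1, beside 11.1% and 9.13% of all genes tested (20.2% in either direction). By group, 18 of 28 pan-endothelial genes fell and 1 rose, 8 of 8 sinusoidal genes fell, and 1 of 4 angiocrine factors fell. The calls of Gata4, a sinusoidal gene, and Esam ended under some alternatives, given beside these genes.

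**Figure D1:**
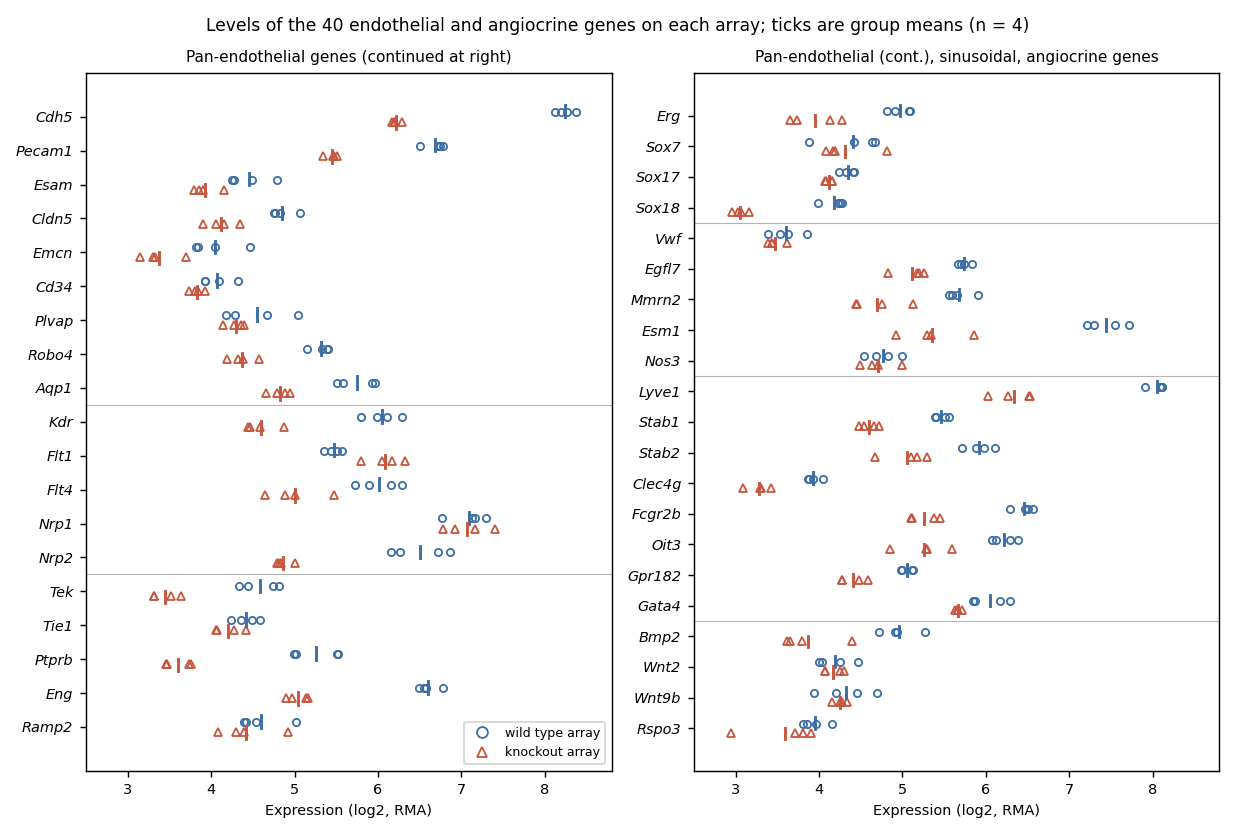
Log2 level of each of the 40 genes (rows) on each of the 4 wild type arrays (blue circles) and 4 knockout arrays (red triangles), with vertical ticks at the group means and lines between functional groups. Cdh5, Esm1, Lyve1, Nrp2 and Ptprb show wide gaps between the groups, Flt1 lies the other way round, and Nrp1, Nos3 and Wnt2 overlap.

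The promoters of 4 genes are shown as examples: the receptor genes Kdr and Flt1, which moved in opposite directions, Esm1, with the largest fall of the 40, and Emcn, the only one of 26 windows found for 22 of the genes that held all 3 kinds of motif searched. Each runs 5′ to 3′ from 250 bases before the gene's start to 50 bases into it (RefSeq, build GRCm38.p6). Capitals mark letters that ETS factors such as ERG (ACAGGAA or CCGGAA), SOX factors such as SOX17 and SOX18 (ACAATG or AACAAT) and GATA factors such as GATA4 (AGATAA or TGATAA) can bind, on either strand. The windows are chr5:75978406-75978705 on the minus strand for Kdr, chr5:147725962-147726261 on the minus strand for Flt1, chr13:113209409-113209708 on the plus strand for Esm1 and chr3:137340828-137341127 on the plus strand for Emcn.
Kdr: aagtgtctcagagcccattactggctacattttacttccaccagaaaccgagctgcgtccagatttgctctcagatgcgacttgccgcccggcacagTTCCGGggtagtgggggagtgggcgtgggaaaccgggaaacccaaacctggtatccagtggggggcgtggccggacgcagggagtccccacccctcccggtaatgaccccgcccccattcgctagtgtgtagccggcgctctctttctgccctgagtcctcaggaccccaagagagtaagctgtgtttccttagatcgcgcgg
Flt1: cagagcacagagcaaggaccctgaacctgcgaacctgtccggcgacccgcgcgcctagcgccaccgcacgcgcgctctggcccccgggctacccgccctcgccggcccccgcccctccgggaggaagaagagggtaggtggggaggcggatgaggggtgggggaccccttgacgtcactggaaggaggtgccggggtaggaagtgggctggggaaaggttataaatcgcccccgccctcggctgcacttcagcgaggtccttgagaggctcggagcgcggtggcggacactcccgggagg
Esm1: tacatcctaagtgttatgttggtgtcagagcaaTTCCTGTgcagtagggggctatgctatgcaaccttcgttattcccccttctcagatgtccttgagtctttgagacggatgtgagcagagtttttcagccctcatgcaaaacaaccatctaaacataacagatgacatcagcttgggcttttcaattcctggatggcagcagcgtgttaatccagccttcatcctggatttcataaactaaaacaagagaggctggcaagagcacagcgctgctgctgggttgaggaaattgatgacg
Emcn: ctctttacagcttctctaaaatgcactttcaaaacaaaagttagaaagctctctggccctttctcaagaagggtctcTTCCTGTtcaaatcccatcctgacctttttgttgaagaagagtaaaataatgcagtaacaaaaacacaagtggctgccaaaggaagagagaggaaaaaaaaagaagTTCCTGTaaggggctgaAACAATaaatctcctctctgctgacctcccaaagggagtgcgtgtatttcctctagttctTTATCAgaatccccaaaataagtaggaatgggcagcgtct

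With the start as 0, the Kdr window held an ETS match at -153 and the Esm1 window one at -217. The Flt1 window held none of the letters searched. Neither did the windows of Aqp1, Cldn5, Eng, Robo4, Flt4, Nrp2, Fcgr2b and Stab2, which all fell. The Emcn window held ETS matches at -173 and -67, a SOX match at -50 and a GATA match at 10. Over the 26 windows, 7 (26.9%) held ETS letters, 4 (15.4%) SOX letters and 5 (19.2%) GATA letters. The shares over all 32851 promoters of the same length were 22.4%, 18.7% and 18.6%, so none of the 3 stood far from the background. A match describes letters and not a bound site.

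Genes of endothelial junctions and the cell surface fell in 7 of 9 cases. Cdh5 encodes VE-cadherin, the adhesion molecule of endothelial junctions. It was at 8.27, 8.19, 8.38 and 8.12 on the wild type arrays and 6.16, 6.28, 6.21 and 6.19 on the knockout arrays. The gap between the groups was many times the spread within either, a 4.07-fold fall (log2 change -2.03, SE 0.088, adjusted p = 4.39e-07). Among the 15380 genes tested it had the 6th largest fall. Pecam1, for the junctional immunoglobulin protein CD31, was at 6.78, 6.51, 6.75 and 6.72 on the wild type arrays and 5.47, 5.34, 5.51 and 5.46 on the knockout arrays. The fall was 2.37-fold (log2 change -1.24, SE 0.092, adjusted p = 9.62e-06). The 4 knockout values lay close together, about a log2 unit or more below the wild type arrays. Robo4, an endothelial guidance receptor that stabilises vessels, fell from 5.32 ± 0.12 to 4.37 ± 0.16 (log2 change -0.95, SE 0.10, adjusted p = 0.000141). Aqp1, the water channel of capillary endothelium, fell from 5.74 ± 0.24 to 4.82 ± 0.13 (log2 change -0.92, SE 0.12, adjusted p = 0.000601).

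Smaller falls were found for 3 further junction and surface genes. Cldn5, the claudin of endothelial tight junctions, fell by 0.74 (SE 0.12, adjusted p = 0.00156). Emcn, the sialomucin endomucin, fell by 0.67 (SE 0.16, adjusted p = 0.0164). Of the 4 knockout arrays only 2 lay above the 3.32 filter for Emcn. Esam, an adhesion molecule of tight junctions, was at 4.27, 4.79, 4.25 and 4.49 on the wild type arrays and 3.85, 3.91, 3.79 and 4.16 on the knockout arrays. The highest knockout value lay just below the lowest wild type value, and the change was -0.52 (SE 0.13) with an adjusted p of 0.0243. That call ended when wild type replicate 2 or 4, or 1 of knockout replicates 1, 2 and 3, was left out, with adjusted p-values of 0.055 to 0.0662. Cd34, a sialomucin of capillary endothelium, and Plvap, the diaphragm protein of fenestrae and caveolae that normal sinusoidal cells largely lack, did not pass. Their changes were -0.24 (95% interval -0.47 to -0.0035) and -0.25 (-0.62 to 0.12), and the groups overlapped for both.

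The receptors for VEGF, the main endothelial growth factor, did not move together: 3 of 5 receptor and co-receptor genes fell and 1 rose. Kdr encodes VEGFR2, the main signalling receptor. It was at 5.80, 5.99, 6.28 and 6.11 on the wild type arrays and 4.87, 4.59, 4.44 and 4.47 on the knockout arrays. All knockout values lay about a log2 unit or more below the wild type values, a 2.74-fold fall (log2 change -1.45, SE 0.13, adjusted p = 2.84e-05). Flt1 encodes VEGFR1, which binds VEGF-A tightly, signals weakly and acts largely as a trap. It was at 5.35, 5.51, 5.57 and 5.44 on the wild type arrays and 6.17, 6.05, 6.33 and 5.79 on the knockout arrays. Here every knockout array lay above every wild type array, a 1.53-fold rise (log2 change 0.62, SE 0.12, adjusted p = 0.00519), and the call held in all 19 alternative fits. Within single arrays, the difference of Flt1 minus Kdr was higher by 2.07 in the knockout. Flt4 encodes VEGFR3, which binds VEGF-C and VEGF-D and is found in sinusoidal as well as lymphatic endothelium. It was at 5.89, 6.29, 6.16 and 5.72 on the wild type arrays and between 4.64 and 5.47 on the knockout arrays. Knockout replicate 1 came closest to the wild type arrays, and the fall was 1.01 (SE 0.18, adjusted p = 0.00289).

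The neuropilins, co-receptors for VEGF and semaphorins, also parted. Nrp2 was at 6.86, 6.26, 6.72 and 6.16 on the wild type arrays and 4.84, 4.79, 4.81 and 5.01 on the knockout arrays. The knockout arrays were tightly grouped and far below the wild type arrays, a 3.11-fold fall (log2 change -1.64, SE 0.15, adjusted p = 3.83e-05). Nrp1 was at 7.17, 6.77, 7.29 and 7.12 on the wild type arrays and 6.92, 7.40, 7.16 and 6.78 on the knockout arrays. The groups overlapped fully, the change was -0.021 (95% interval -0.35 to 0.31, adjusted p = 0.953), and its sign turned under 5 alternatives.

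Of 5 genes for angiopoietin, TGF-beta and adrenomedullin receptor parts, 3 fell. Tek encodes TIE2, the angiopoietin receptor that keeps vessels quiescent. It was at 4.75, 4.33, 4.81 and 4.44 on the wild type arrays and 3.31, 3.52, 3.32 and 3.64 on the knockout arrays. The knockout arrays were all lower, a 2.2-fold fall (log2 change -1.14, SE 0.13, adjusted p = 0.000178), and only 2 of them lay above 3.32. Tie1, the co-receptor of TIE2, did not pass, with a change of -0.21 (95% interval -0.46 to 0.036). Ptprb, the phosphatase VE-PTP that restrains TIE2 and VE-cadherin, was at 5.50, 5.01, 5.52 and 4.99 on the wild type arrays and 3.75, 3.47, 3.73 and 3.46 on the knockout arrays. The groups were far apart, a 3.14-fold fall (log2 change -1.65, SE 0.15, adjusted p = 2.8e-05). Eng encodes endoglin, the co-receptor for TGF-beta and BMP9. It was at 6.78, 6.49, 6.58 and 6.55 on the wild type arrays and 5.16, 4.97, 5.13 and 4.90 on the knockout arrays. The groups lay over a log2 unit apart, a 2.95-fold fall (log2 change -1.56, SE 0.10, adjusted p = 5.01e-06). Ramp2, which turns the calcitonin receptor-like receptor into the adrenomedullin receptor, had overlapping groups and a change of -0.17 (95% interval -0.58 to 0.23). Its partner Calcrl, named after its values were seen, fell from 5.35 ± 0.13 to 3.90 ± 0.16 (log2 change -1.44, SE 0.11, adjusted p = 9.12e-06).

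Among the endothelial transcription factors 2 of 4 fell. Erg, an ETS factor that maintains endothelial identity, was at 5.08, 4.81, 5.09 and 4.91 on the wild type arrays and 4.28, 4.14, 3.74 and 3.65 on the knockout arrays. Knockout replicates 3 and 4 were lowest, and all knockout arrays lay below the wild type arrays (log2 change -1.02, SE 0.14, adjusted p = 0.000773). Of the SOXF factors, which specify vessels, Sox18 fell from 4.18 ± 0.13 to 3.05 ± 0.084 (log2 change -1.13, SE 0.095, adjusted p = 2.08e-05). All 4 knockout values of Sox18 were under 3.32, so the size of its fall is uncertain. Sox17 was at 4.42, 4.32, 4.24 and 4.40 on the wild type arrays and 4.16, 4.09, 4.07 and 4.16 on the knockout arrays. The groups did not overlap, but the change of -0.23 missed the threshold (adjusted p = 0.0967). Sox7 had overlapping groups and a change of -0.087 (95% interval -0.52 to 0.35).

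Of the secreted and matrix proteins and the endothelial nitric oxide synthase, 3 of 5 genes fell. Esm1, for the proteoglycan endocan that VEGF induces in sprouting endothelium, was at 7.71, 7.21, 7.54 and 7.30 on the wild type arrays and 5.30, 5.35, 5.85 and 4.92 on the knockout arrays. The fall was 4.25-fold (log2 change -2.09, SE 0.18, adjusted p = 2.52e-05), the 4th largest among all genes tested, with knockout replicate 3 highest and replicate 4 lowest of their group. Mmrn2, an endothelial matrix protein that binds VEGF, fell from 5.68 ± 0.16 to 4.69 ± 0.32 (log2 change -0.98, SE 0.15, adjusted p = 0.0014). Egfl7, a secreted endothelial matrix protein whose gene hosts a microRNA, fell from 5.74 ± 0.07 to 5.12 ± 0.19 (log2 change -0.62, SE 0.11, adjusted p = 0.00285). Vwf, for von Willebrand factor, and Nos3, for the enzyme that makes nitric oxide in endothelium, had overlapping groups. Their changes were -0.13 (95% interval -0.37 to 0.11) and -0.058 (-0.34 to 0.23).

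**Figure D2:**
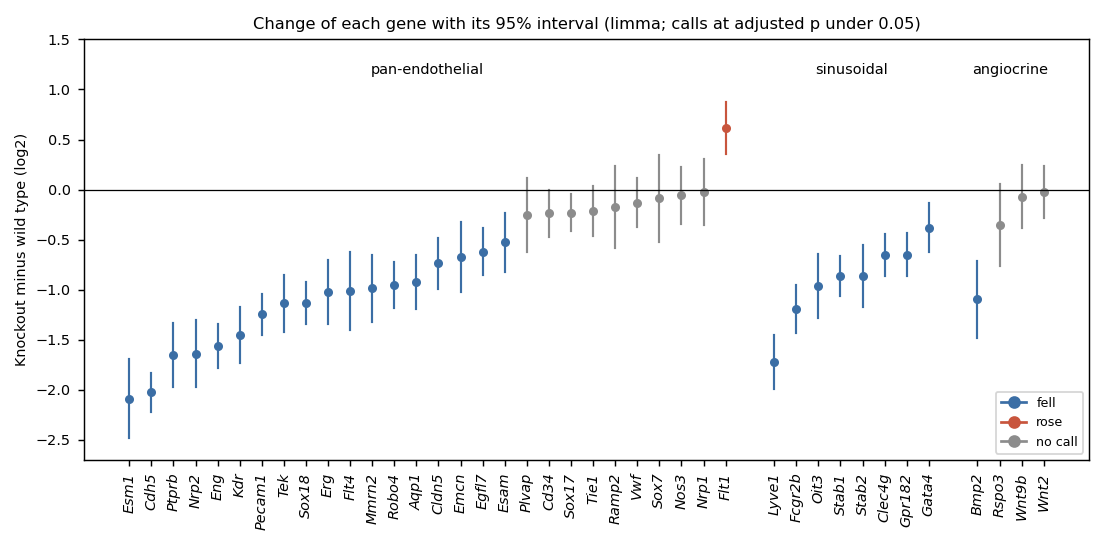
Change of each gene (x axis, ordered within its group) in log2 units, knockout minus wild type, with the 95% interval of the limma fit; blue marks genes that fell, red the 1 that rose and grey those without a call. Among the pan-endothelial genes Esm1 and Cdh5 lie lowest and Flt1 alone lies above 0; the 8 sinusoidal genes all lie below 0; of the angiocrine factors Bmp2 lies apart from the other 3.

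All 8 sinusoidal genes fell, and for each the groups did not overlap (of all genes tested, 11.1% lay wholly lower in the knockout). Their changes ran from -1.72 to -0.38 with a median of -0.86. Lyve1, the hyaluronan receptor of sinusoidal and lymphatic endothelium, was at 8.11, 7.90, 8.09 and 8.12 on the wild type arrays and 6.52, 6.52, 6.26 and 6.03 on the knockout arrays. Each knockout array lay over a log2 unit below each wild type array, a 3.3-fold fall (log2 change -1.72, SE 0.12, adjusted p = 6.72e-06). Fcgr2b, the inhibitory Fc receptor by which sinusoidal cells take up immune complexes, was at 6.51, 6.47, 6.56 and 6.29 on the wild type arrays and 5.37, 5.45, 5.10 and 5.12 on the knockout arrays. The groups did not overlap, a 2.29-fold fall (log2 change -1.20, SE 0.11, adjusted p = 3.42e-05).

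The scavenger receptors stabilin-1 and stabilin-2, which clear hyaluronan and modified proteins, fell by nearly the same amount. Stab1 was at 5.40, 5.56, 5.51 and 5.39 on the wild type arrays and 4.66, 4.72, 4.54 and 4.48 on the knockout arrays and had a change of -0.86 (SE 0.091), with an adjusted p of 9.59e-05. Stab2 was at 5.98, 5.88, 6.12 and 5.72 on the wild type arrays and 5.10, 5.30, 5.17 and 4.67 on the knockout arrays and had a change of -0.86 (SE 0.14), with an adjusted p of 0.00191. Stab2 was lowest on knockout replicate 4, where Stab1 was lowest too. Oit3, a secreted zona pellucida-domain protein of sinusoidal cells, was at 6.08, 6.12, 6.39 and 6.29 on the wild type arrays and 5.29, 5.60, 5.28 and 4.86 on the knockout arrays. It was likewise lowest on knockout replicate 4, with a 1.95-fold fall (log2 change -0.96, SE 0.15, adjusted p = 0.00125). Gpr182, an atypical chemokine receptor of these cells, fell from 5.05 ± 0.074 to 4.41 ± 0.16 (log2 change -0.65, SE 0.099, adjusted p = 0.00133). Clec4g, the lectin LSECtin, fell from 3.93 ± 0.082 to 3.28 ± 0.14 (log2 change -0.66, SE 0.097, adjusted p = 0.00105), with 1 of 4 knockout arrays above 3.32. On knockout replicate 4 the level was the lowest of the group for 5 of these 8 genes. That array also had the lowest mean over all genes tested, 5.78 against 5.83 to 5.84 on the other knockout arrays.

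Gata4, the transcription factor that specifies sinusoidal endothelium and is also made by stellate cells, was at 5.87, 6.17, 5.84 and 6.29 on the wild type arrays and 5.71, 5.63, 5.65 and 5.67 on the knockout arrays. The wild type arrays fell into a higher pair and a lower pair, and both pairs lay above the knockout arrays. Its change of -0.38 (SE 0.11) was the smallest of the sinusoidal genes and its adjusted p of 0.0466 was close to the threshold. The call ended under 11 alternative fits, with adjusted p-values of 0.0565 to 0.119. They included the fits without wild type replicate 2 or 4 and without any 1 of the knockout replicates. In each of these fits 7 of the 8 sinusoidal genes fell. Gata6, a related factor, rose from 7.32 ± 0.15 to 7.84 ± 0.23 (log2 change 0.52, SE 0.13, adjusted p = 0.0185), a call that ended when replicate 2 of either group, wild type replicate 1 or knockout replicate 3 was left out (adjusted p-values of 0.0508 to 0.0613).

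Of the 4 angiocrine factors, Bmp2 fell. BMP2 is the sinusoidal ligand that, with BMP6, induces hepcidin in hepatocytes. Bmp2 was at 4.93, 4.91, 5.27 and 4.72 on the wild type arrays and 3.62, 3.79, 3.65 and 4.39 on the knockout arrays. All knockout arrays were lower, replicate 4 least so, which gave a 2.14-fold fall (log2 change -1.10, SE 0.17, adjusted p = 0.0017). Wnt2, the Wnt ligand of pericentral sinusoidal cells, was at 4.00, 4.25, 4.03 and 4.47 on the wild type arrays and 4.29, 4.07, 4.07 and 4.25 on the knockout arrays. The groups overlapped, and its change of -0.02 had a 95% interval of -0.28 to 0.24. Wnt9b, made with Wnt2 by the endothelium around the central vein, had a change of -0.069 (95% interval -0.39 to 0.25).

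Rspo3 encodes R-spondin 3, which strengthens Wnt signals through LGR receptors. It was at 4.16, 3.81, 3.96 and 3.85 on the wild type arrays and 2.95, 3.71, 3.81 and 3.90 on the knockout arrays. Knockout replicate 1 lay well below the other arrays, the groups overlapped, and the change of -0.35 missed the threshold (95% interval -0.76 to 0.056). The means of the 3 factors without a call lay between 3.59 and 4.32 in either group, and whether such values stand above background was not tested.

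Other factors that endothelium can send to hepatocytes were read from a list of 14, of which 13 were tested. By limma 5 fell and none rose (at an unadjusted p under 0.05, 7 were lower and 0 higher). Over all genes tested 6.76% fell and 7.02% rose. Bmp6 was at 5.63, 5.66, 5.74 and 5.53 on the wild type arrays and 4.35, 4.07, 4.71 and 4.30 on the knockout arrays. Without overlap between the groups, this was a 2.43-fold fall (log2 change -1.28, SE 0.13, adjusted p = 6.42e-05). Angpt2, the antagonist of TIE2, fell from 6.08 ± 0.13 to 4.59 ± 0.32 (log2 change -1.49, SE 0.15, adjusted p = 6.29e-05). Tgfb1 fell by 1.13, Igfbp7, a matrix-bound IGF-binding relative, by 1.16 and the hepatocyte growth factor gene Hgf by 0.80, with adjusted p-values of 0.000132, 1.16e-05 and 0.00159. All 4 knockout values of Hgf were under 3.32, so the size of its fall is uncertain. The activin genes Inhba (-0.17) and Inhbb (-0.34), the Wnt genes Wnt4 (-0.058) and Wnt5a (-0.20), Rspo1 (0.027), the Wnt secretion factor Wls (-0.042), the chemokine Cxcl12 (-0.37) and Fgf2 (0.14) did not pass. Of these Inhbb passed in 3 alternative fits (adjusted p-values of 0.03 to 0.0476). Il6 was below the filter and was not tested. Tgfb1, Igfbp7 and Hgf are also made by macrophages or stellate cells.

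Of 8 hepatocyte genes that answer to BMP signals, 3 rose and none fell by limma (at an unadjusted p under 0.05, 1 was lower). Over all genes tested 7.02% rose and 6.76% fell. Hamp, which encodes hepcidin, was at 7.45, 8.73, 8.47 and 8.87 on the wild type arrays and 11.04, 11.53, 11.42 and 11.16 on the knockout arrays. Every knockout array lay over 2 log2 units above every wild type array (log2 change 2.91, SE 0.26, adjusted p = 3.24e-05), on the same arrays where Bmp2 and Bmp6 were lower. Atoh8 was at 4.58, 4.49, 4.91 and 4.68 on the wild type arrays and 5.76, 5.58, 5.65 and 5.39 on the knockout arrays and rose by 0.93 (SE 0.12, adjusted p = 0.000343). Id2 rose by 0.56 (SE 0.13, adjusted p = 0.0161). Id1, a direct SMAD target, was at 4.28, 4.18, 4.41 and 4.53 on the wild type arrays and 4.29, 4.11, 4.24 and 4.41 on the knockout arrays. Its groups overlapped and its change was -0.089 (95% interval -0.32 to 0.14). Id3 (-0.19), Smad6 (-0.14), Smad7 (-0.32) and Smad9 (-0.14) did not pass either, although Smad7 did in 2 alternative fits (0.043 and 0.0441). Of 19 mature hepatocyte genes 13 rose too, and their part in the Hamp result was not tested.

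Of 18 tested Wnt target genes of hepatocytes 5 rose and none fell by limma (at an unadjusted p under 0.05, 6 were higher and 0 lower). Of all genes tested 7.02% rose. Axin2 (0.022, 95% interval -0.27 to 0.31) and Lgr5 (0.11, -0.085 to 0.31), which report beta-catenin activity most directly, did not pass. Nor did Rnf43 (0.21), Znrf3 (0.055) and Tbx3 (-0.017). For Lgr5 only 1 of 4 wild type and 3 of 4 knockout arrays lay above 3.32, so its result says little. The risers included pericentral enzymes: Cyp1a2 rose from 7.65 ± 0.12 to 9.20 ± 0.16 (log2 change 1.56, SE 0.11, adjusted p = 5.82e-06), the glutamine synthetase gene Glul by 0.59 (SE 0.095, adjusted p = 0.00191) and Cyp2e1 by 0.41 (SE 0.098, adjusted p = 0.0182). With the mean of its rows Glul had a change of 0.24 and an adjusted p of 0.19. The Cyp2e1 call ended when replicate 1 or 2 of either group was left out (adjusted p-values of 0.0509 to 0.06). Of 19 mature hepatocyte genes, Cyp2e1 among them, 13 rose too, and their part in these rises was not tested. A list of 19 hepatocyte receptor genes covered receptors for Wnt, BMP and hepatocyte growth factor signals. Among them 1 rose and 3 fell, beside 7.02% and 6.76% of all genes tested. Named after their values were seen, the riser was the Wnt receptor gene Fzd5 (0.48). The fallers were the BMP receptor genes Bmpr1a (-0.31) and Acvr1 (-0.46) and the hepatocyte growth factor receptor gene Met (-0.66). The 2 with the highest means, the Wnt co-receptors Lrp6 (0.032) and Lrp5 (0.15), did not pass.

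**Figure D3:**
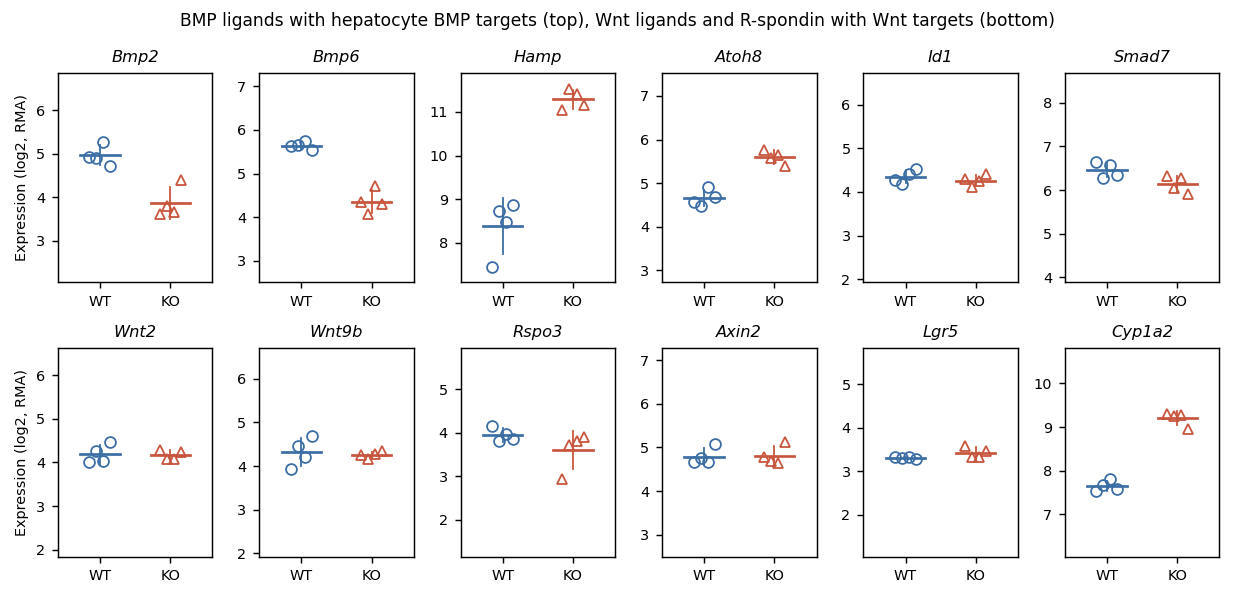
Log2 level on each array for BMP ligands and hepatocyte BMP targets (top) and for Wnt ligands, R-spondin 3 and Wnt targets (bottom); horizontal bars are group means, vertical bars the SD (n = 4), and each panel spans the same number of log2 units. Bmp2 and Bmp6 lie lower in the knockout and Hamp and Atoh8 higher, while Wnt2, Wnt9b, Axin2 and Lgr5 overlap between the groups.

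Of 10 genes for VEGF, angiopoietin and apelin ligands 7 were tested, 2 fell and 1 rose. Over all genes tested 6.76% fell and 7.02% rose. Vegfa, which hepatocytes make and KDR and FLT1 bind, was at 10.25, 10.35, 10.56 and 10.67 on the wild type arrays and 10.88, 10.70, 10.91 and 10.75 on the knockout arrays. Every knockout array was above every wild type array, as for 9.13% of all genes tested. The change was 0.35, but the adjusted p was 0.0577. Vegfa passed under 7 alternative fits, among them the intensity trend (0.00992). Adm, for adrenomedullin, the ligand of the CALCRL and RAMP2 pair, rose from 8.21 ± 0.31 to 9.48 ± 0.29 (log2 change 1.27, SE 0.17, adjusted p = 0.000649). Vegfc, the ligand of FLT4, fell from 5.89 ± 0.14 to 5.16 ± 0.10 (log2 change -0.73, SE 0.1, adjusted p = 0.000632), and Angpt2, which is also among the other secreted factors above, was the other gene that fell. Vegfb (0.13), Pgf (0.32) and Apln (-0.54) did not pass, although Pgf passed in 1 alternative fit (0.0458) and Apln in 2 (0.00767 and 0.0352), and Vegfd, Angpt1 and Angptl1 lay below the filter.

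In lists of further endothelial genes, which share none with the 40, most sinusoidal markers fell and most genes of the other lists had no call. Some genes stand in 2 of these lists. Among them is Maf, whose fall counts in both the sinusoidal and the transcription factor list. These lists too were chosen with earlier results of these data known, so they are no independent check. Of all genes tested 6.76% fell and 7.02% rose. Of 11 tested sinusoidal markers 8 fell and 1 rose, among them Kit, a receptor of pericentral sinusoidal cells, from 5.95 ± 0.052 to 4.92 ± 0.20 (log2 change -1.03, SE 0.11, adjusted p = 8.04e-05); Gata6 was the riser. Of 21 other endothelial markers 8 fell and none rose by limma (11 lower and 1 higher at an unadjusted p under 0.05). Cd93, a lectin-like surface receptor of endothelium, fell by 1.40 (SE 0.21), while the caveolin gene Cav2 had a change of -0.26 (adjusted p = 0.0817, but 0.042 and 0.0475 in 2 alternative fits). Of 16 genes of Notch, KLF and related vessel signalling 5 fell and none rose (9 lower and 0 higher at an unadjusted p under 0.05). Klf4 fell by 0.56 (SE 0.12), Bmpr2 had a change of -0.40 (adjusted p = 0.081, but 0.0253 to 0.0271 in 3 alternative fits), and the Notch ligands Dll4 and Jag1, named after their values were seen, fell by 1.04 and 1.41. Of 12 other transcription factors of endothelium 5 fell and none rose (5 lower and 0 higher at an unadjusted p under 0.05). Hhex (-0.04) and Ets2 (0.039), which had the highest means, did not pass, and Fli1, an ETS factor close to ERG named after its values were seen, fell by 0.59. Of 5 tested genes of lymphatic and arterial endothelium 1 rose, Prox1, by 0.56 (adjusted p = 0.0242), a factor that hepatocytes also make. Its groups overlapped, and its call ended when 1 of wild type replicates 1, 2 and 4 or of knockout replicates 1, 2 and 3 was left out (adjusted p-values of 0.0572 to 0.0721). Fbln5 had a change of -0.051.

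**Figure D4:**
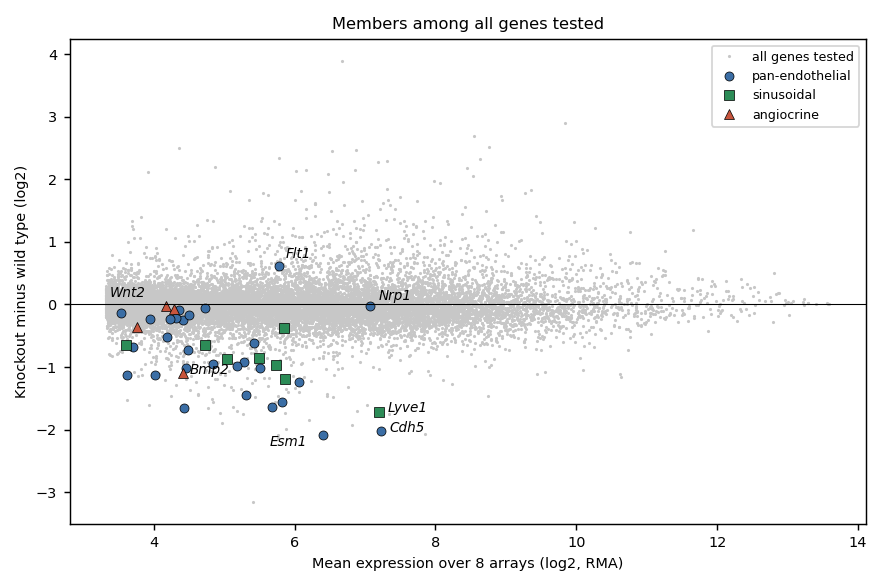
Change (y axis, knockout minus wild type, log2) against mean level over the 8 arrays (x axis, log2) for all 15380 genes tested (grey) and the 40 genes (blue circles pan-endothelial, green squares sinusoidal, red triangles angiocrine). Of the 18 genes with a mean above 5, 16 fell, Flt1 rose and Nrp1 lies at -0.021; the genes without a call lie mostly at lower means.

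The 12 genes without a call were mostly of low signal. Of the 18 genes with a mean over 5 across all arrays, 16 fell and 1 rose, and Nrp1 was without a call. Of the 16 with a mean between 4 and 5, 8 fell, and of the 6 below 4, 3 fell. The signal of a row depends on its probes as well as on RNA. Among the 27 genes that fell, knockout replicate 4 held the lowest knockout value for 13 and wild type replicate 4 the lowest wild type value for 12. Knockout replicate 4 was also the knockout array with the lowest mean over all genes tested. The mean over the 27 genes ran from 5.65 to 5.78 on the wild type arrays and from 4.54 to 4.68 on the knockout arrays, so the arrays within a group differed little.

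Most macrophage markers and some stellate cell markers fell on the same arrays, and most hepatocyte genes rose. The shares over all genes tested were 6.76% falling and 7.02% rising. Of 16 tested markers of Kupffer cells and macrophages 12 fell and 1 rose, and their summed log2 level was 82.5 to 84.6 on the wild type arrays and 70.4 to 71.4 on the knockout arrays. The riser was Cd68 (by 0.58, SE 0.13), a lysosomal gene found in other cells too, and the complement gene C1qa fell by 0.38 (adjusted p = 0.0287), a call that ended under 7 alternative fits (0.0523 to 0.0802). For stellate cells and fibroblasts, 6 of 18 tested markers fell and 1 rose, with a summed log2 level of 89.6 to 91.7 on the wild type arrays and 80.2 to 82.8 on the knockout arrays. The 2 of highest mean moved in opposite directions: Reln rose by 0.99 (SE 0.13) and Ecm1 fell by 0.95 (SE 0.11). Larger falls in this list, named after their values were seen, were those of the matrix proteoglycan gene Dcn by 2.13, the pericyte gene Rgs5 by 1.65, Lrat, whose enzyme stores retinol as esters, by 1.47 and the matrix protein gene Sparc by 1.25. The Dcn fall was larger than that of any of the 40 genes. These 4 do not stand for the list, whose median change was -0.30. Of its 18 tested markers 11 had no call, among them Col1a1 (-0.19), Acta2 (-0.15) and Tagln (0.19). Of 19 mature hepatocyte genes 13 rose and none fell (16 higher and 0 lower at an unadjusted p under 0.05), and their summed log2 level was 166 to 170 on the wild type arrays and 187 to 191 on the knockout arrays. For comparison, the summed log2 level of the 28 pan-endothelial genes was 147 to 151 on the wild type arrays and 126 to 129 on the knockout arrays. That of the 8 sinusoidal genes was 46.9 to 47.4 on the wild type arrays and 38.4 to 40.8 on the knockout arrays. RMA gives no level of 0. Whether the macrophage, stellate and hepatocyte shifts have a part in the endothelial result was not tested.

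No call was made by limma among cholangiocyte, lymphocyte, neutrophil, platelet or mesothelial markers, of which 4, 6, 2, 2 and 5 were tested. Below the filter lay 2 cholangiocyte, 5 lymphocyte, 7 neutrophil and 2 platelet markers. At an unadjusted p under 0.05, 1 cholangiocyte and 1 lymphocyte gene were lower and 0 genes of the other lists differed. The 2 of highest mean in each list had changes of -0.12 (Sox9) and -0.24 (Krt19), 0.057 (Nkg7) and -0.06 (Cd3e), 0.10 (Csf3r) and -0.074 (Mpo), 0.04 (Gp9) and -0.073 (Itga2b), and 0.0071 (Wt1) and -0.0023 (Upk3b). The means of Cd3e (3.90), Csf3r (3.84) and Mpo (3.77) lay near the array medians, so their results say little.

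**Figure D5:**
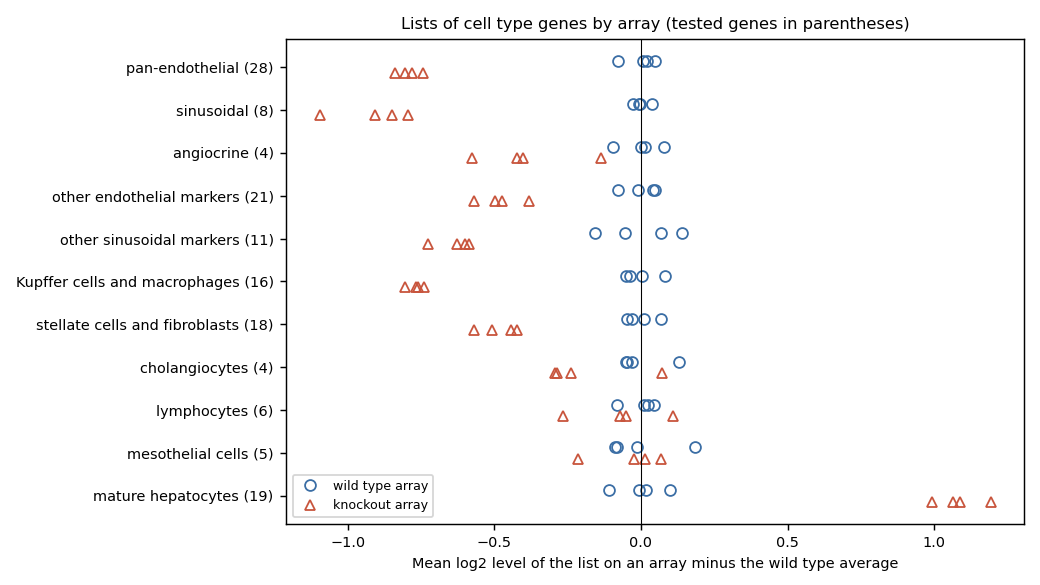
Mean log2 level of each list's tested genes on each array, minus the average of the wild type arrays (x axis), for 11 lists (rows) on the 4 wild type (blue circles) and 4 knockout arrays (red triangles). The knockout arrays lie to the left of the wild type arrays for the endothelial, angiocrine, macrophage and stellate lists, to the right for mature hepatocytes, and overlap them for cholangiocytes, lymphocytes and mesothelial cells. The angiocrine gap is narrow (list means of 4.26 to 4.43 on wild type and 3.78 to 4.22 on knockout arrays), and of its 4 genes only Bmp2 fell.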

How the data were processed

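Total RNA of 8 cultures was hybridised to 1-colour Affymetrix arrays. The deposited values are log2 expression, made by the authors with RMA in the oligo package per the submitters' processing notes (no version is named). RMA shrinks low signals toward a common floor. Of 41345 rows, 23521 carry exactly 1 gene symbol, 1814 several and 16010 none, and only the first were named, giving 22180 genes. A gene with several rows was read from the row of highest mean.

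Genes with a mean over all arrays above 3.32, the 40th percentile of row means, were tested (15380). limma 3.58.1 in R 4.3.3 (lmFit, eBayes) compared 4 knockout with 4 wild type arrays, and p-values were adjusted by Benjamini and Hochberg's method over the 15380 genes, with calls under 0.05. SE and intervals come from the same fit. The script was tested on simulated data. The files give no batch, so none was fitted.

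The 40 genes and the comparison lists were chosen with earlier results of these data known. Named were the 40 genes, all BMP targets, secreted factors and vascular ligands, 8 Wnt targets, and the 2 genes of highest mean of each other list. Calcrl, Dll4, Jag1, Fli1, Dcn, Rgs5, Lrat, Sparc, Fzd5, Bmpr1a, Acvr1, Met and Maf were added after their values were seen. Alternatives tried were other filters, rows, normalizations, variance models, thresholds, a replicate block, and each array left out.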

Additional observations from a re-analysis of the deposited data

Results flagged for a closer look

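In 86 groups of 4 arrays checked for 1 value far from the rest, 2 stood out by Dixon's test at its 95% critical value, where chance gives about 1 in 20. Sox7 was at 4.82 on knockout replicate 1 and at 4.09 to 4.19 on the other 3 knockout arrays, a gap of 0.853 of the group's range. Lyve1 was at 7.90 on wild type replicate 2 and at 8.09 to 8.12 on the other 3 wild type arrays, a gap of 0.878 of the range, and that array still lay above every knockout array.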

How the results depend on the processing

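Of the 28 of the 40 genes with a call, 22 kept it in each of the 19 alternative fits run. Emcn, Tek, Sox18 and Clec4g kept theirs in 18 fits and were not tested in the fit with the stricter filter on dim genes, which left out 12 of the 40. Gata4 and Esam lost theirs in some fits, as given beside them. No called gene of the 40 changed sign and no uncalled one gained a call in a fit. With 1 array left out at a time, 1448 to 2165 genes passed over all genes tested, 26 to 28 of the 40, 17 to 18 pan-endothelial and 7 to 8 sinusoidal genes fell, and 1 angiocrine factor fell and 1 gene rose throughout. A threshold of 0.01 in place of 0.05 left 1071 genes.

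Changes without a call could turn sign, and the cause was not tested. With 1 array left out they ranged over Nrp1 -0.1328 to 0.0755, Sox7 -0.2607 to 0.0027, Nos3 -0.1547 to 0.0194, Wnt2 -0.0818 to 0.0732, Wnt9b -0.1962 to 0.0548, Wnt4 -0.2204 to 0.0038, Rspo1 -0.0698 to 0.133, Wls -0.0932 to 0.0298, Axin2 -0.086 to 0.1152, Tbx3 -0.0699 to 0.0628, Hhex -0.1179 to 0.0257, Lrp6 -0.0293 to 0.0951, Nkg7 -0.0503 to 0.1813, Cd3e -0.1284 to 0.0225, Mpo -0.2231 to 0.1524, Gp9 -0.0542 to 0.1412, Wt1 -0.0811 to 0.1097, Upk3b -0.1164 to 0.0798 and Fbln5 -0.1461 to 0.0211. With array weights the changes were 0.0411 for Nrp1, 0.0019 for Nos3, -0.029 for Axin2, 0.0558 for Tbx3 and -0.0001 for Nkg7. Lrp6 was at -0.1415 as the mean of its rows and -0.3146 on its row of lowest mean. Upk3b was at 0.0192 with quantile normalization, 0.0126 with cyclic loess and 0.008 with median centring.

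The labels do not say whether the replicate numbers pair the arrays, and the correlations did not settle it. Deviations of same-numbered arrays correlated at 0.0613, 0.0196, 0.263 and 0.207, and those of other pairs at -0.291 to 0.151. Wild type replicate 1 correlated better with knockout replicate 3 (0.0795), and wild type replicate 2 with knockout replicate 4 (0.151). With the replicate number as a block 2215 genes passed, 27 of the 40 among them; the call lost was that of Gata4, so 7 of 8 sinusoidal genes fell. Dim rows limit what could be seen, and detection above background was not analysed here.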
